A study of Homo sapiens with 24 samples.

Results

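The transforming growth factor β (TGF-β) and bone morphogenetic protein (BMP) response was followed through 9 genes in human esophageal adenocarcinoma cells. The members were taken by symbol, from a list made with earlier results of these data known: the ligand genes BMP4, TGFB1 and TGFB2, the target genes ID1, ID2 and ID3, the inhibitory SMAD genes SMAD6 and SMAD7, and TGFBI. Each symbol matched 1 Ensembl identifier of the 61860 in the count tables, and all 9 genes passed the filter on low counts in every comparison. By the GENCODE 29 annotation BMP4 lies on chromosome 14, TGFB1 on 19, TGFB2 and ID3 on 1, ID1 on 20, ID2 on 2, SMAD6 on 15, SMAD7 on 18 and TGFBI on 5.

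The study asked how a high-fat diet, the ubiquitin ligase TRIM15, the zinc finger transcription factor YY2 and the flavin-dependent protein FOXRED1 act on this cancer. All material came from OE33, a human esophageal adenocarcinoma cell line, and RNA was sequenced in 4 experiments of 3 treated and 3 control libraries each. In the diet experiment, male BALB/c-nu nude mice, bought at 4 weeks of age, were fed either the high-fat diet, called HFD, or normal chow, called ND. After 8 weeks they were injected under the skin with OE33 cells, and they carried the tumor for 3 weeks while kept on the same diet. Nude mice lack a thymus but keep other immune cells, and their own stroma can grow into a graft. In culture, OE33 cells carried a plasmid for HA-TRIM15, an HA-tagged TRIM15, or the empty vector (EV) for 48 h. Other OE33 cells received a short hairpin RNA against YY2 (shYY2), or against FOXRED1 (shFOXRED1), each beside its own shControl group, for 72 h. Each of the 4 experiments thus had a separate control group, and no control library was used in 2 comparisons. The labels do not say whether replicates came from separate cultures or mice, so the p-values measure the spread between these libraries, which may be technical. The paper lists 2 hairpins each for YY2 and FOXRED1, and neither it nor the labels say which was sequenced.

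Ligands of this family bind pairs of receptor kinases, which phosphorylate SMAD proteins: TGF-β and activins act mainly through SMAD2 and SMAD3, BMPs through SMAD1, SMAD5 and SMAD9, and both branches share SMAD4. The ID genes are classical early targets of BMP signalling and encode proteins that bind basic helix-loop-helix transcription factors and keep them from DNA, while TGFBI, a secreted matrix protein, is a classical target of TGF-β. SMAD6 and SMAD7 are induced by the pathway and inhibit it. In epithelial tumors TGF-β is known both for slowing growth and for favouring invasion.

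Because the 3 ID genes and TGFBI are the readouts of the 2 branches, the RefSeq sequence of 250 bases before the annotated start of each is shown, 5′ to 3′ on the gene's strand. Capitals mark 2 of the motifs searched on both strands, GGCGCC, a GC-rich site described for SMAD1 and SMAD5, and CCATNTT, a core shared by YY factor sites.

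ID1, GRCh38.p14 chr20:31605039-31605288, plus strand: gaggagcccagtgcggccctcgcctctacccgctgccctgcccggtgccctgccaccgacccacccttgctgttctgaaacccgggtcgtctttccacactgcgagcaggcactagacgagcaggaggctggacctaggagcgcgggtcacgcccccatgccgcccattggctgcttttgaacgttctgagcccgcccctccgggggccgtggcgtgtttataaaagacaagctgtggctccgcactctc
ID2, GRCh38.p14 chr2:8681806-8682055, plus strand: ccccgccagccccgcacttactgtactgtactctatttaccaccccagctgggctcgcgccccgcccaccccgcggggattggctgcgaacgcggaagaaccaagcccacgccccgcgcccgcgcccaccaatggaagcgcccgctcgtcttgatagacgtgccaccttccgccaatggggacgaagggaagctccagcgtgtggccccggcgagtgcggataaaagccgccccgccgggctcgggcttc
ID3, GRCh38.p14 chr1:23559502-23559751, minus strand: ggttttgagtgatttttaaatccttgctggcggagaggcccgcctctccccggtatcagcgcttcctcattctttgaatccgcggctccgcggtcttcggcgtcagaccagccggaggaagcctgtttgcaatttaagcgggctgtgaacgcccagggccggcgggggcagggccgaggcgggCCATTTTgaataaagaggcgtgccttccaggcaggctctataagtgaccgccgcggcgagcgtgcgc
TGFBI, GRCh38.p14 chr5:136028738-136028987, plus strand: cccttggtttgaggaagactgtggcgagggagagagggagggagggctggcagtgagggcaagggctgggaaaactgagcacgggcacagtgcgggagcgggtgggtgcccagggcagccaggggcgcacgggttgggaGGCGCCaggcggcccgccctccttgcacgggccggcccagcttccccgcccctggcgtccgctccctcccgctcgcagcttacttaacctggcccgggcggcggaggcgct

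The ID3 window held CCATNTT 67 bases before the start, the only match to it among the 9 members, whereas 11.7% of the 27305 human windows of this length held it. GGCGCC stood in the windows of TGFBI, 111 bases before the start, and of BMP4, 232 bases before it, and in 16.1% of all windows. The short motif CAGAC, described for SMAD3 and SMAD4 and not capitalised, was found once in the windows of BMP4 and ID3 and 2 times in those of TGFB2 and SMAD7, and in 37.8% of all windows. The windows of ID1, ID2, TGFB1 and SMAD6 held none of the 3 motifs. GC content was 69.2% in the ID2 window and 62.0% in that of ID3, with a median of 58.0% over all windows. For BMP4, TGFB1 and TGFB2 the bases after the RefSeq start were not found in a GENCODE transcript of the gene. The starts of these genes, and so the motif positions and absences given for them, are uncertain. For ID1, ID2, ID3, SMAD6, SMAD7 and TGFBI the bases after the start were found. The motif matches describe letters only, and binding was not measured.

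Library totals ranged from 14299807 to 45994561 counts, and levels are given as CPM, which are counts relative to library size, scaled by the TMM method separately within each experiment. TRIM15 was counted 111, 130 and 181 times in the HA-TRIM15 libraries and not once in the 3 EV libraries, and 14, 12 and 24 times in the HFD tumors against 1, 0 and 0 in the ND tumors. YY2 counts were 11, 12 and 11 under shYY2 and 43, 40 and 46 under its shControl, and FOXRED1 stood at 10.1, 11.2 and 8.83 CPM in the shFOXRED1 libraries and 17.7, 17.2 and 17.3 CPM in the shControl libraries of its experiment. All 10 epithelial markers listed for OE33 were present at 1 CPM or more in all 24 libraries. Their sum was 15971 to 16219 CPM in HFD and 14726 to 15048 CPM in ND tumors, 12375 to 13681 CPM with HA-TRIM15 and 13122 to 13418 CPM with EV, 18726 to 19297 CPM under shYY2 and 13590 to 14425 CPM under its shControl, and 15917 to 18411 CPM under shFOXRED1 and 16574 to 17396 CPM under its shControl. The summed level of the 9 fibroblast and stroma markers was 25.4 to 29.2 CPM in HFD and 32.8 to 35.5 CPM in ND tumors, 12.2 to 12.8 CPM with HA-TRIM15 and 13.7 to 14.8 CPM with EV, 44.7 to 46.6 CPM under shYY2 and 11.7 to 12.8 CPM under its shControl, and 39.6 to 42.5 CPM under shFOXRED1 and 26.2 to 26.8 CPM under its shControl. COL1A1 and ACTA2 were the 2 of the 9 that reached 1 CPM in any library, and DCN, LUM and PDGFRA did not exceed 0.162 CPM anywhere. The 6 immune markers summed to 14.7 to 14.8 CPM in HFD and 15.7 to 17.2 CPM in ND tumors, 8.72 to 10.0 CPM with HA-TRIM15 and 7.87 to 8.19 CPM with EV, 9.90 to 10.6 CPM under shYY2 and 14.3 to 15.6 CPM under its shControl, and 20.8 to 24.0 CPM under shFOXRED1 and 24.5 to 26.5 CPM under its shControl. Of these 6, CD14 and ITGAM reached 1 CPM, and PTPRC, which marks white blood cells, was at no more than 0.14 CPM. The stroma and immune sums of treated and control libraries were thus apart in all 4 experiments, and the epithelial sums in the HFD and shYY2 experiments. Markers within a sum did not always move together. Under shFOXRED1 COL1A1 was 38.4 to 41.7 CPM against 24.1 to 25.3 CPM, whereas ACTA2 was 0.721 to 1.16 CPM against 1.38 to 1.97 CPM. With HA-TRIM15 COL1A1 overlapped, at 11.0 to 11.3 CPM against 10.8 to 11.9 CPM. In HFD tumors ITGAM was 8.68 to 9.60 CPM against 10.9 to 11.6 CPM, whereas CD14 overlapped, at 4.69 to 5.74 CPM against 4.27 to 4.84 CPM. The culture experiments held OE33 cells only, so stroma and immune markers counted there are levels in OE33 cells and not shares of other cell types. Host cells of the tumors are mouse cells, while the counts are by human gene. In bulk RNA of the tumors, fewer cells of a kind and less RNA per cell cannot be told apart. What part the marker levels had in the results was not tested.

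Per kilobase of exon, ID1 stood highest of the 9 genes in all 8 groups, from 222 ± 13.8 CPM per kb with HA-TRIM15 to 652 ± 13.0 in HFD tumors (SD, n = 3). Rank 2 was held by TGFB1 in 6 groups, by ID3 in ND tumors and by ID2 under shYY2, at 48.9 ± 0.274 CPM per kb. The lowest level in each group belonged to TGFB2, SMAD6 or SMAD7. Of the exon bases of TGFB2, 1371 (26.6%) also belong on the same strand to TGFB2-OT1, which held 0 counts in the 24 libraries, so the level of TGFB2 per kilobase is uncertain. In ND and HFD tumors no 2 neighbours in this order overlapped over their libraries, whereas in the shControl group of the shYY2 experiment the ranges of TGFBI and ID3, ID3 and ID2, ID2 and BMP4, and TGFB2 and SMAD6 overlapped.

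**Figure D1:**
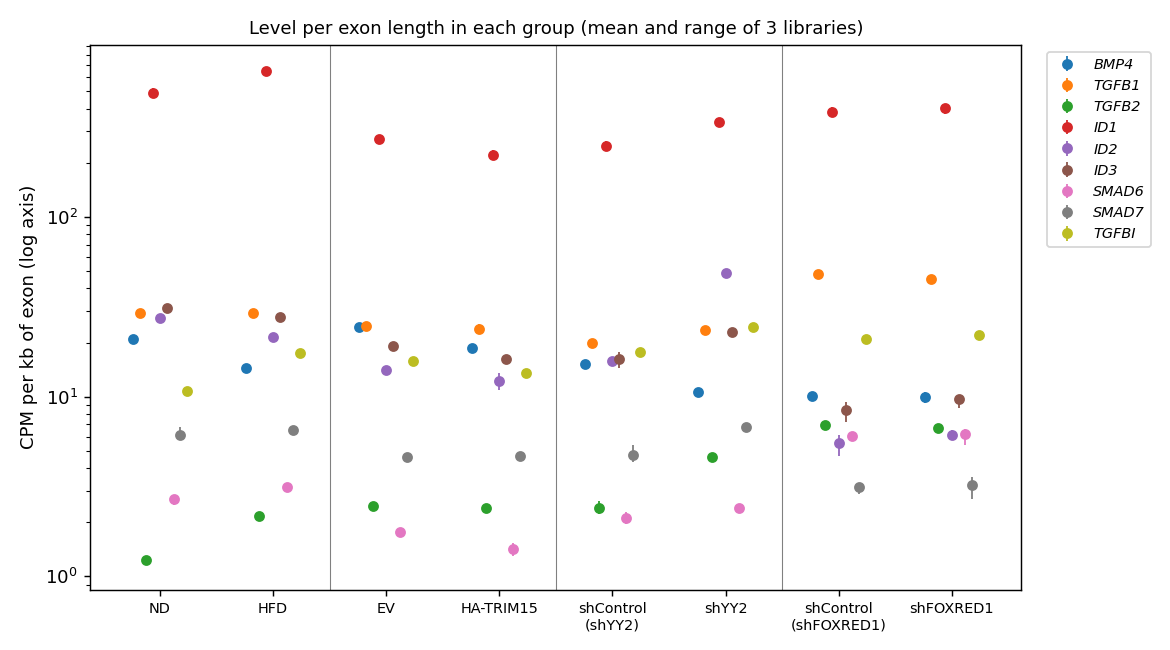
Level of each of the 9 genes per kilobase of exon (CPM per kb, log axis) in the 8 groups, as the mean of 3 libraries with a bar from the lowest to the highest library. ID1 lies above all other genes in each group, and ID2 is second to it under shYY2 only.

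The shControl groups of the 2 knockdown experiments are both OE33 cells with a control hairpin, yet their ranges were apart for all 9 members, as for 71.7% of the 14922 genes tested in both experiments. The level was higher in the shYY2 experiment for 4 members and in the shFOXRED1 experiment for 5. ID2 was 35.5, 34.5 and 34.1 CPM in the control libraries of the shYY2 experiment and 10.3, 13.5 and 12.7 CPM in those of the shFOXRED1 experiment. SMAD6 was 17.7, 19.4 and 16.7 CPM in the former and 53.7, 50.6 and 51.4 CPM in the latter, and TGFB2 was 12.3, 11.5 and 13.5 CPM against 36.7, 35.7 and 35.2 CPM. TGFB1 was 62.9 to 66.1 CPM against 149 to 164 CPM, and BMP4 was 44.3 to 49.0 CPM against 29.2 to 32.9 CPM. The 2 tables were scaled separately and experiment and control group cannot be told apart here, and each treated group is compared only with its own control below.

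**Figure D2:**
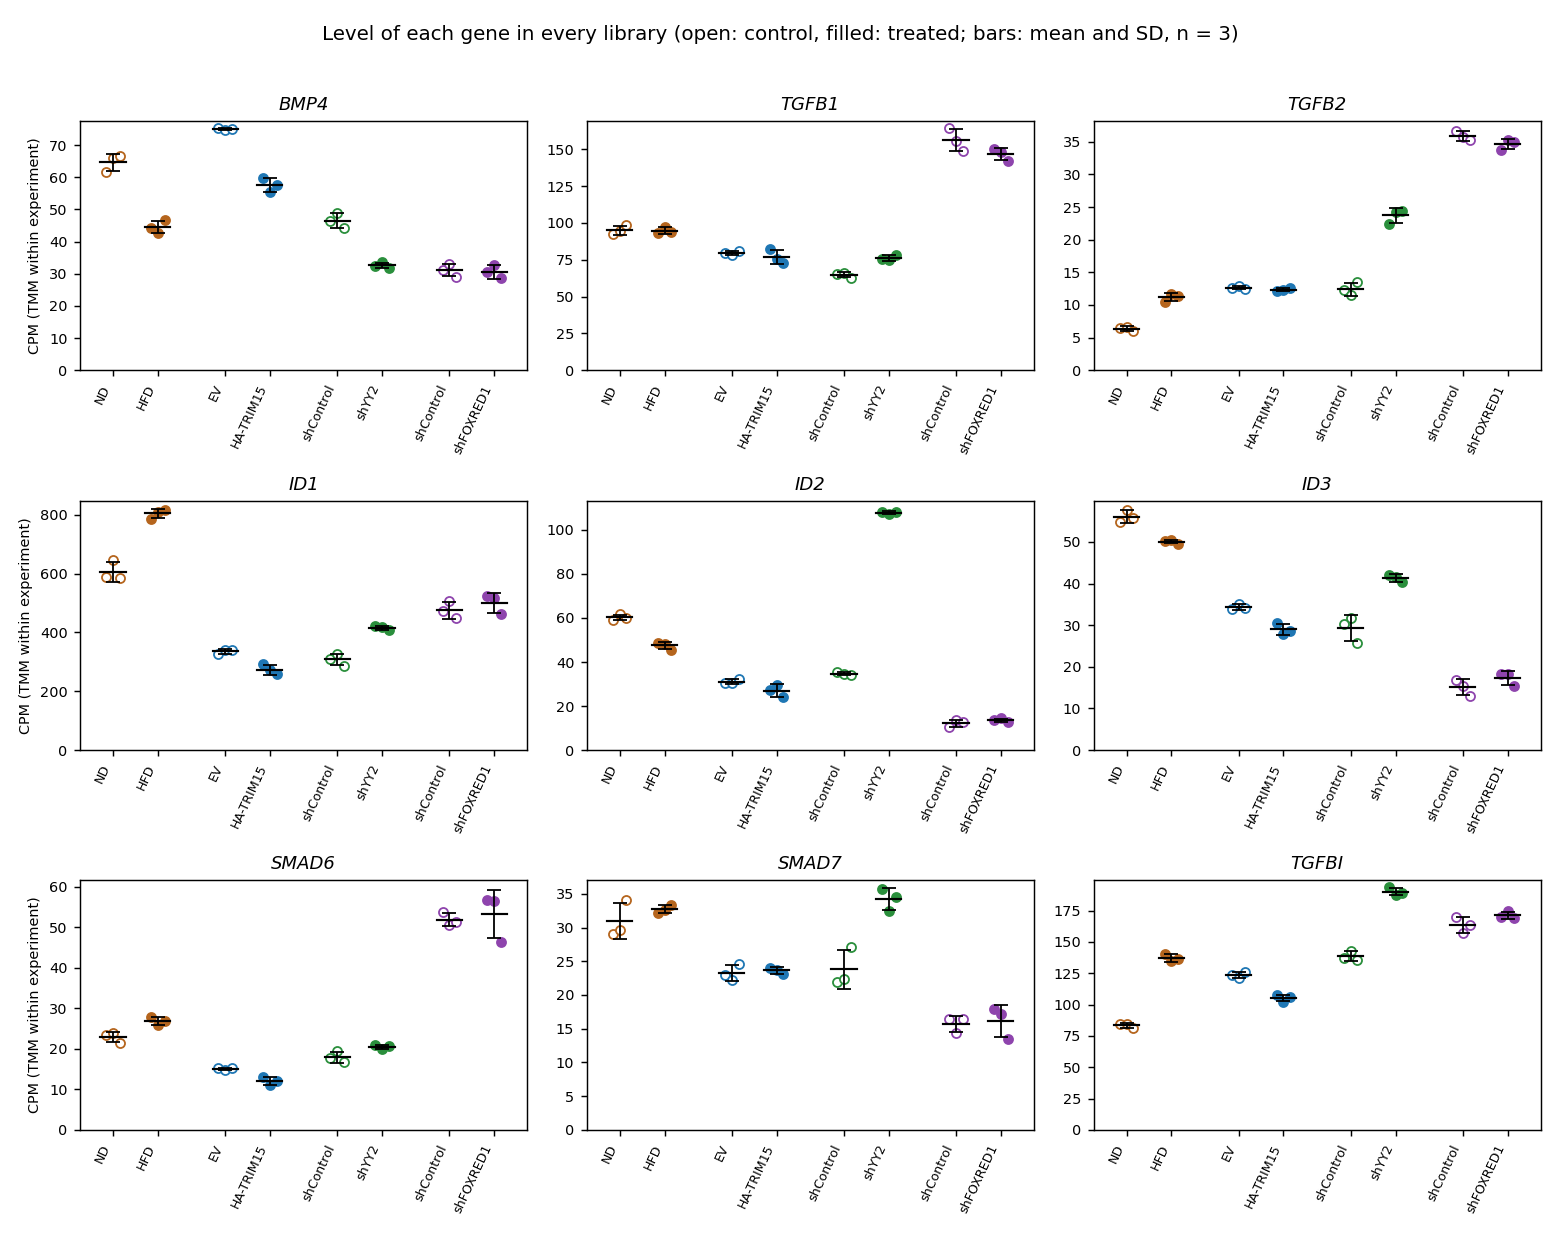
Level of each of the 9 genes in all 24 libraries (CPM, linear axis from 0), with open points for control libraries, filled points for treated libraries, and bars for the mean and SD of 3 libraries. ID2 under shYY2 (107 to 108 CPM) lies far above its shControl libraries (34.1 to 35.5 CPM), while shFOXRED1 libraries and their controls overlap for all 9 genes.

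A gene was called when its adjusted p in the edgeR quasi-likelihood test (Benjamini-Hochberg over all genes tested) was under 0.05, and log2 fold changes are treated against control, positive where the treated group was higher. In tumors of HFD mice the members moved in both directions. TGFB2, TGFBI, ID1 and SMAD6 were higher and BMP4, ID2 and ID3 were lower than in ND tumors, 7 of 9 members in all, where 49.5% of the 17012 genes tested were called, 25.6% as higher and 23.9% as lower. The median log2 fold change of the 9 members was 0.092, and over all genes tested it was -0.012. The groups did not overlap for these 7 members, as for 56.2% of all genes.

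Among the ligands, TGFB2 was 10.5, 11.7 and 11.3 CPM in the HFD libraries and 6.52, 6.61 and 5.96 CPM in the ND libraries. All HFD libraries lay above all ND libraries, a 1.74-fold rise (log2 fold change 0.80, SE 0.086, edgeR adjusted p = 1.02e-06). BMP4, a ligand of the BMP branch, was 44.2, 42.8 and 46.7 CPM in the HFD libraries and 61.7, 66.0 and 66.5 CPM in the ND libraries. All HFD values lay below those of ND, a 1.45-fold fall (log2 fold change -0.53, SE 0.046, edgeR adjusted p = 8.14e-08). TGFB1, the most widely expressed TGF-β ligand gene, was 93.0, 97.2 and 93.9 CPM in the HFD libraries and 92.3, 94.5 and 98.3 CPM in the ND libraries. The groups overlapped, and the 95% interval of its log2 fold change was -0.086 to 0.075 (edgeR adjusted p = 0.922).

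The 3 ID genes parted in direction. ID1 was 786, 808 and 817 CPM in the HFD libraries and 588, 645 and 586 CPM in the ND libraries. It was higher in every HFD library (log2 fold change 0.41, SE 0.039, edgeR adjusted p = 2.96e-07). ID2 was 48.7, 48.3 and 45.5 CPM in the HFD libraries and 59.2, 61.7 and 60.0 CPM in the ND libraries. It was lower in every HFD library (log2 fold change -0.35, SE 0.043, edgeR adjusted p = 4.32e-06). ID3 differed less, at 50.1 ± 0.433 CPM against 56.1 ± 1.47 CPM (SD, n = 3), and its groups were also apart (log2 fold change -0.17, SE 0.041, edgeR adjusted p = 0.00275).

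Of the inhibitory SMADs, SMAD6, which acts mainly on BMP receptors, rose from 23.5, 23.9 and 21.4 CPM in ND to 27.9, 26.0 and 26.9 CPM in HFD tumors (log2 fold change 0.23, SE 0.058, edgeR adjusted p = 0.0038). SMAD7, which inhibits both branches, was 32.2, 32.6 and 33.4 CPM in the HFD libraries and 29.1, 29.7 and 34.0 CPM in the ND libraries. Its groups overlapped through the third ND library (log2 fold change 0.092, edgeR adjusted p = 0.204). Without that library SMAD7 was called as higher, at 0.16 (edgeR adjusted p = 0.0191). TGFBI was 140.5, 134 and 137 CPM in the HFD libraries and 84.7, 84.8 and 81.1 CPM in the ND libraries. Every HFD library exceeded every ND library by a wide margin, a 1.64-fold rise (log2 fold change 0.71, SE 0.037, edgeR adjusted p = 1.66e-10). This was the smallest adjusted p among the 9 members in this comparison.

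Around the 9 members, 82 other genes of the pathway were followed in 5 role groups. In the HFD comparison 69 were tested, 31 were higher and 18 lower, or 71.0% called beside 49.5% of all genes. All 4 SMAD transducers that were called rose, out of 6 measured, and SMAD4, the mediator shared by both branches, rose from 20.8 ± 0.624 to 32.1 ± 0.277 CPM (log2 fold change 0.62, SE 0.051, edgeR adjusted p = 4.47e-08). Of 18 genes for ligands and their processing, 9 rose and 4 fell, with ITGAV, an integrin subunit that can release latent TGF-β, at a log2 fold change of 0.80 (edgeR adjusted p = 3.22e-11) and GDF15, a stress-induced distant ligand, at a log2 fold change of -1.34 (edgeR adjusted p = 5.94e-13). Of 13 receptors and co-receptors 5 rose and 4 fell, led by the type II BMP receptor gene BMPR2 at a log2 fold change of 0.54 (edgeR adjusted p = 3.92e-09) and the activin receptor gene ACVR1B at a log2 fold change of -0.41 (edgeR adjusted p = 6.12e-07). Among 13 inhibitors 4 rose and 5 fell, with the activin-binding FSTL3 at a log2 fold change of 1.01 (edgeR adjusted p = 7.19e-12) and the pseudoreceptor BAMBI at a log2 fold change of -0.53 (edgeR adjusted p = 9.13e-08). Of 19 targets 9 rose and 5 fell, among the latter the anchoring collagen gene COL7A1 at a log2 fold change of -0.33 (edgeR adjusted p = 0.00416).

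With HA-TRIM15, 6 of the 9 members fell and none was called as higher. BMP4, ID1, ID2, ID3, SMAD6 and TGFBI were lower than with EV, by 1.15-fold (ID2) to 1.30-fold (BMP4), where 22.1% of the 15745 genes tested were called, 9.53% as lower and 12.5% as higher. By an unadjusted p under 0.05 there were likewise 0 members higher and 6 lower, and DESeq2 called 0 higher and 5 lower. The median log2 fold change of the members was -0.23 and that of all genes -0.0065. The 2 groups did not overlap for these 6 members, nor for 37.7% of all genes.

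BMP4 was 59.9, 55.5 and 57.7 CPM in the HA-TRIM15 libraries and 75.2, 74.6 and 75.1 CPM in the EV libraries, a 1.30-fold fall with groups well apart (log2 fold change -0.38, SE 0.041, edgeR adjusted p = 1.58e-05). TGFB1 was 82.0, 75.4 and 73.0 CPM in the HA-TRIM15 libraries and 79.7, 78.3 and 80.7 CPM in the EV libraries, with overlapping groups (log2 fold change -0.048, edgeR adjusted p = 0.49). Without the first HA-TRIM15 library, its highest, TGFB1 was called as lower, at -0.10 (edgeR adjusted p = 0.0396). TGFB2 stood at 12.4 ± 0.224 CPM against 12.7 ± 0.266 CPM (SD, n = 3), and the interval of its log2 fold change was -0.20 to 0.13.

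ID1 was 291, 271 and 258 CPM in the HA-TRIM15 libraries and 326, 339.8 and 340.0 CPM in the EV libraries, and all HA-TRIM15 values lay below all EV values (log2 fold change -0.29, SE 0.041, edgeR adjusted p = 1.46e-04). ID3 was 30.5, 27.9 and 28.7 CPM in the HA-TRIM15 libraries and 34.0, 35.1 and 34.1 CPM in the EV libraries, again with no overlap (log2 fold change -0.24, SE 0.052, edgeR adjusted p = 0.00449). ID2 was 27.1, 29.7 and 24.0 CPM in the HA-TRIM15 libraries and 30.3, 30.3 and 32.3 CPM in the EV libraries. Its groups nearly touched through the second HA-TRIM15 library, and the call sat close to the threshold (log2 fold change -0.20, SE 0.068, edgeR adjusted p = 0.0442). It was lost without the third HA-TRIM15 library, at -0.13 (edgeR adjusted p = 0.178), without any 1 of the EV libraries (edgeR adjusted p = 0.0819, 0.0838 and 0.167 without the first, the second and the third), and by DESeq2 (adjusted p = 0.0627).

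SMAD6 was 13.1, 11.1 and 12.1 CPM in the HA-TRIM15 libraries and 15.2, 14.9 and 15.3 CPM in the EV libraries, all lower with HA-TRIM15 (log2 fold change -0.32, SE 0.080, edgeR adjusted p = 0.011). This call was lost without the second HA-TRIM15 library, its lowest, at -0.26 (edgeR adjusted p = 0.0578). SMAD7 stood at 23.6 ± 0.472 CPM against 23.2 ± 1.21 CPM (SD, n = 3), with overlapping groups and an interval of -0.11 to 0.16. TGFBI was 108, 102 and 106 CPM in the HA-TRIM15 libraries and 124, 121 and 126 CPM in the EV libraries, lower in each HA-TRIM15 library (log2 fold change -0.23, SE 0.036, edgeR adjusted p = 3.92e-04).

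The 82 other pathway genes held more rises than falls in this experiment. Of 65 tested, 24 rose and 10 fell, 52.3% called beside 22.1% of all genes, with a median log2 fold change of 0.054. DESeq2 called 5 as lower instead of 10, and leaving out 1 library gave 3 to 12. KLF10, an early TGF-β target gene and a zinc finger repressor, rose 2.02-fold from 108, 112 and 114 CPM to 219, 223 and 233 CPM (log2 fold change 1.01, SE 0.036, edgeR adjusted p = 8.67e-11), while CCN2, a matrix-associated target, fell (log2 fold change -0.43, edgeR adjusted p = 0.00333). INHBA, which encodes the activin A subunit, rose from 103, 103 and 99.8 CPM to 162, 162 and 170.3 CPM (log2 fold change 0.70, SE 0.036, edgeR adjusted p = 4.95e-09), and INHBB, the activin B subunit gene, fell (log2 fold change -0.40, edgeR adjusted p = 0.0475). Of 17 targets 9 rose and 2 fell, and of 13 inhibitors 6 rose and 2 fell, BAMBI at a log2 fold change of 0.42 (edgeR adjusted p = 7.81e-04) and the SMAD corepressor gene SKI at a log2 fold change of -0.15 (edgeR adjusted p = 0.0283). Of 12 receptors 3 rose and 1 fell, and of 6 transducers 1 rose: ACVR1, a type I receptor gene for BMPs, was at a log2 fold change of 0.14 (edgeR adjusted p = 0.0202), the co-receptor gene ENG at a log2 fold change of -0.20 (edgeR adjusted p = 0.00717) and SMAD5 at a log2 fold change of 0.14 (edgeR adjusted p = 0.0433).

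Under shYY2, all members but BMP4 rose. The 8 that were higher than in shControl were led by ID2, which rose 3.11-fold, and TGFB2, which rose 1.91-fold, while BMP4 fell 1.43-fold. In this experiment 75.0% of the 16006 genes tested were called, 36.8% as higher and 38.1% as lower, and the 9 of 9 calls stand beside that share. The median log2 fold change of the members was 0.46, beside -0.0081 over all genes. No member's groups overlapped, as for 76.3% of all genes.

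ID2 was 108, 107 and 108 CPM in the shYY2 libraries and 35.5, 34.5 and 34.1 CPM in the shControl libraries. The treated libraries lay close together and far above the controls (log2 fold change 1.64, SE 0.036, edgeR adjusted p = 3.73e-15). Opposite its exons, 38 bases (1.72%) lie in ID2-AS1, which held 1066 counts over the 24 libraries beside 21854 for ID2. ID1 was 420.3, 418 and 407 CPM in the shYY2 libraries and 310.0, 327 and 287 CPM in the shControl libraries (log2 fold change 0.43, SE 0.038, edgeR adjusted p = 4.58e-08). ID3 was 42.2, 41.6 and 40.4 CPM in the shYY2 libraries and 30.4, 31.7 and 25.8 CPM in the shControl libraries (log2 fold change 0.50, SE 0.065, edgeR adjusted p = 3.29e-06). All 3 ID genes thus stood higher in each shYY2 library, with ID2 rising most.

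The ligand genes divided. TGFB2 was 22.5, 24.3 and 24.4 CPM in the shYY2 libraries and 12.3, 11.5 and 13.5 CPM in the shControl libraries, a clear separation (log2 fold change 0.93, SE 0.075, edgeR adjusted p = 1.28e-08). TGFB1 rose less, from 65.1, 66.1 and 62.9 CPM to 75.3, 75.0 and 78.2 CPM (log2 fold change 0.24, SE 0.037, edgeR adjusted p = 2.72e-05). Part of TGFB1 cannot be told from its neighbour if strand was not used in counting: 215 of its exon bases, 6.64%, lie opposite exons of HNRNPUL1, which held 116776 counts over the 24 libraries beside 48650 for TGFB1. BMP4 was 32.4, 33.6 and 31.9 CPM in the shYY2 libraries and 46.4, 49.0 and 44.3 CPM in the shControl libraries, lower in every shYY2 library (log2 fold change -0.51, SE 0.051, edgeR adjusted p = 1.63e-07).

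SMAD7 was 35.7, 32.5 and 34.5 CPM in the shYY2 libraries and 21.9, 22.4 and 27.1 CPM in the shControl libraries, with the third shControl library nearest to the treated ones and still below them (log2 fold change 0.52, SE 0.074, edgeR adjusted p = 9.95e-06). SMAD6 differed least of the 9, 20.9, 20.0 and 20.8 CPM in the shYY2 libraries and 17.7, 19.4 and 16.7 CPM in the shControl libraries (log2 fold change 0.20, SE 0.070, edgeR adjusted p = 0.0178). That call was lost without the first or the third shYY2 library (edgeR adjusted p = 0.0504 and 0.0512), without the first or the third shControl library (edgeR adjusted p = 0.0521 and 0.0943), and by DESeq2 (adjusted p = 0.0541). TGFBI was 194, 188 and 189 CPM in the shYY2 libraries and 138, 143 and 136 CPM in the shControl libraries, again with no overlap (log2 fold change 0.46, SE 0.031, edgeR adjusted p = 1.63e-09). Beside these values, COL1A1, listed as a stroma marker but counted here in cultured OE33 cells, stood at 43.8, 42.3 and 41.8 CPM in the shYY2 libraries and 10.4, 11.0 and 10.5 CPM in the shControl libraries. ACTA2, the other marker of that list tested, rose from 1.21, 1.54 and 1.46 CPM to 2.62, 2.46 and 2.33 CPM (log2 fold change 0.81, edgeR adjusted p = 9.03e-04). PDGFRB stood at 0.122 to 0.379 CPM under shYY2 and 0 to 0.101 CPM under shControl, while COL1A2, COL3A1, DCN, LUM, PDGFRA and POSTN did not exceed 0.12 CPM in any of these 6 libraries.

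Of the 82 other pathway genes, 69 were tested under shYY2, and 39 rose and 15 fell, 78.3% called beside 75.0% of all genes. Of 19 genes for ligands and their processing, 15 were higher and 1 lower. LTBP4, which tethers latent TGF-β in the matrix, went from 49.7, 51.6 and 46 CPM to 117, 123 and 117 CPM (log2 fold change 1.28, SE 0.042, edgeR adjusted p = 2.39e-13), and the 1 that fell was INHBA, from 126, 127 and 139.8 CPM to 32.4, 31.7 and 34.4 CPM, a 3.99-fold fall (edgeR adjusted p = 1.03e-14). Of 13 receptors 7 rose and 4 fell: the activin receptor gene ACVR2B was at a log2 fold change of 1.31 (edgeR adjusted p = 3.11e-12) and TGFBR1, the type I receptor gene for TGF-β, at a log2 fold change of -1.01 (edgeR adjusted p = 8.84e-13). SMAD3 rose to 459 ± 3.99 from 314 ± 4.38 CPM (log2 fold change 0.55, SE 0.027, edgeR adjusted p = 2.70e-11), 1 of 3 transducers called as higher out of 6. Targets did not share a direction, 8 higher and 7 lower of 18. CCN2 rose 10.4-fold, from 14.6, 15.2 and 15.6 CPM to 154, 159 and 159 CPM (log2 fold change 3.37, SE 0.042, edgeR adjusted p = 2.16e-17), while KLF10 fell (log2 fold change -0.81, edgeR adjusted p = 2.47e-12). Among 13 inhibitors 6 rose and 3 fell, from the homeobox repressor gene TGIF1 at a log2 fold change of 0.85 (edgeR adjusted p = 7.44e-13) to the activin antagonist gene FST at a log2 fold change of -1.56 (edgeR adjusted p = 2.09e-13).

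Under shFOXRED1, edgeR called 0 of the 9 members, where 36.6% of the 15730 genes tested were called, 16.8% as higher and 19.7% as lower. An unadjusted p under 0.05 was reached by 0 members, and DESeq2 also called 0. The groups overlapped for all 9, while 46.7% of all genes had groups apart. The member log2 fold changes ran from -0.091 for TGFB1 to 0.20 for ID3, with a median of 0.042 beside 0.012 for all genes.

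ID1 was 523, 515 and 462 CPM in the shFOXRED1 libraries and 472, 507 and 449 CPM in the shControl libraries. The third shFOXRED1 library lay below the 2 others and inside the control range, and the interval of the log2 fold change was -0.047 to 0.19 (edgeR adjusted p = 0.34). Without that library ID1 was called as higher, at 0.12 (edgeR adjusted p = 0.0165), the 1 member called. The same library was the lowest of its group for 8 of the 9 members, TGFB2 being the exception. The third shControl library was the lowest of its group for 5 members and the highest for 0. ID3 was 18.4, 18.3 and 15.5 CPM in the shFOXRED1 libraries and 16.8, 15.5 and 13.0 CPM in the shControl libraries, with an interval of -0.046 to 0.45. ID2 was 13.5, 14.4 and 12.9 CPM in the shFOXRED1 libraries and 10.3, 13.5 and 12.7 CPM in the shControl libraries, with an interval of -0.097 to 0.42. Both sets of libraries overlapped, and neither interval is narrow enough to call these genes unaltered.

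For the ligands, BMP4 stood at 30.6 ± 2.07 CPM against 31.0 ± 1.88 CPM, TGFB1 at 147 ± 4.27 CPM against 156 ± 7.66 CPM and TGFB2 at 34.7 ± 0.805 CPM against 35.9 ± 0.761 CPM (SD, n = 3 for each). Their intervals were -0.20 to 0.16, -0.21 to 0.028 and -0.20 to 0.10 in that order. TGFBI was 169.9, 175 and 169 CPM in the shFOXRED1 libraries and 169.7, 157 and 163 CPM in the shControl libraries. The first shControl library lay among the treated values and the others lay below them. The interval for TGFBI was -0.045 to 0.18. Relative to their means, SMAD6 and SMAD7 varied most between the treated libraries, at 56.8, 56.6 and 46.4 CPM and 17.9, 17.1 and 13.5 CPM.

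The pathway around the members did hold called genes. Of 69 tested under shFOXRED1, 13 rose and 20 fell, 47.8% beside 36.6% of all genes. INHBA fell from 41.0, 41.5 and 41.6 CPM to 11.6, 13.8 and 16.4 CPM (log2 fold change -1.58, SE 0.10, edgeR adjusted p = 4.69e-09), and GDF15 was the larger of 2 rises among 19 ligands and their processing, at a log2 fold change of 0.56 (edgeR adjusted p = 1.52e-06). TGFBR1 fell (log2 fold change -1.09, edgeR adjusted p = 1.49e-09), and the co-receptor gene TGFBR3 rose from 32.0 ± 2.29 to 62.6 ± 5.59 CPM (log2 fold change 0.97, edgeR adjusted p = 7.91e-08). SMAD3 fell (log2 fold change -0.44, edgeR adjusted p = 4.31e-07), with SMAD4 the other of 2 transducers called as lower. Of 19 targets 5 rose and 7 fell: CCN2 went from 5.83, 9.02 and 7.00 CPM to 2.27, 1.84 and 1.78 CPM (log2 fold change -1.88, SE 0.21, edgeR adjusted p = 2.22e-06), and the cell-cycle inhibitor gene CDKN2B rose (log2 fold change 0.65, edgeR adjusted p = 1.18e-07). TGIF1 was at a log2 fold change of 0.54 (edgeR adjusted p = 9.84e-07) and FST at a log2 fold change of -0.68 (edgeR adjusted p = 0.0197) among 13 inhibitors, of which 3 rose and 4 fell.

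**Figure D3:**
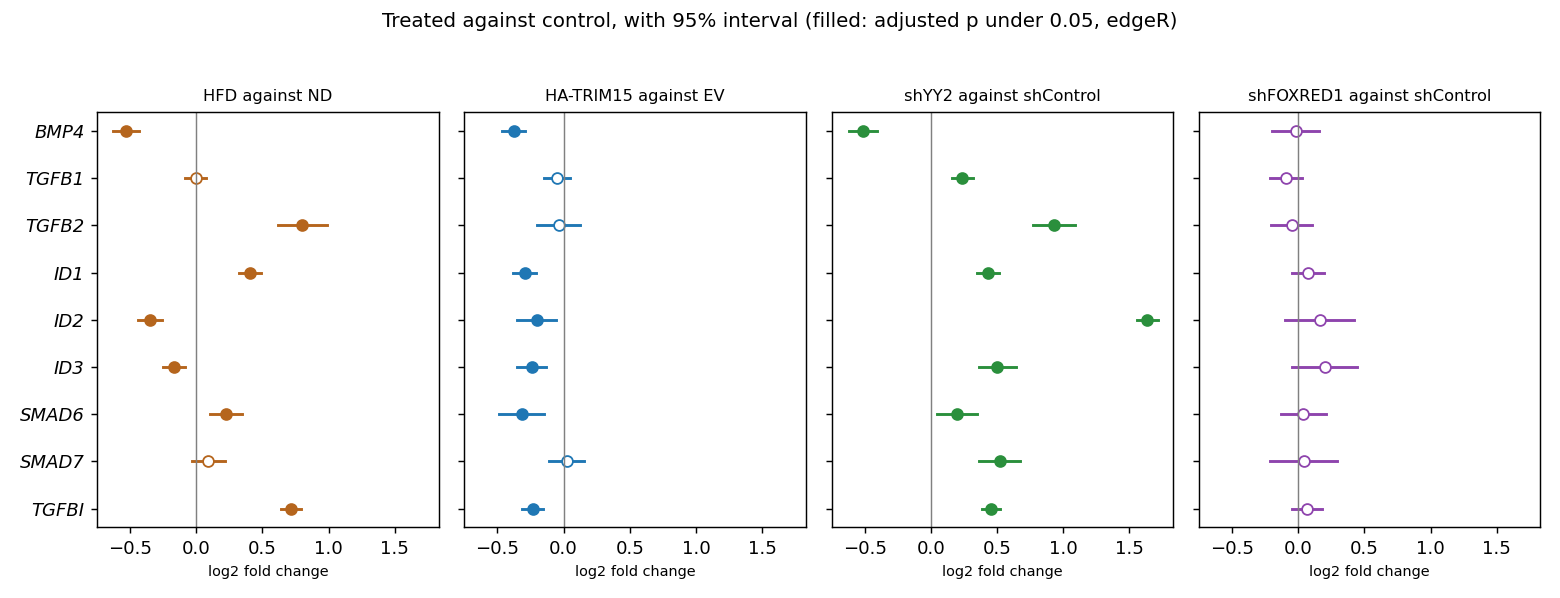
log2 fold change of each of the 9 genes, treated minus control, in the 4 experiments, with bars for the 95% interval and filled points where the edgeR adjusted p was under 0.05. BMP4 lies left of 0 in the first 3 panels, ID2 reaches 1.64 under shYY2, and all 9 intervals cross 0 under shFOXRED1.

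Whether a member responded differently in 2 experiments was tested as a difference of effects in 1 edgeR fit of all 24 libraries. Among the members the largest difference was that of ID2: its effect in HFD tumors minus that under shYY2 was -2.02 (95% interval -2.18 to -1.85, edgeR adjusted p = 1.44e-19), and its effect with HA-TRIM15 minus that under shYY2 was -1.88 (95% interval -2.05 to -1.70, edgeR adjusted p = 1.41e-17). TGFBI, higher in HFD tumors and lower with HA-TRIM15, differed between these 2 experiments by 0.95 (95% interval 0.85 to 1.06, edgeR adjusted p = 9.23e-15). ID1 differed by 0.71 (95% interval 0.56 to 0.86, edgeR adjusted p = 7.43e-09), TGFB2 by 0.84 (95% interval 0.63 to 1.06, edgeR adjusted p = 2.02e-07) and SMAD6 by 0.55 (95% interval 0.32 to 0.77, edgeR adjusted p = 2.50e-04). These were the 4 members past the threshold in that pair, beside 28.4% of 17980 genes. TGFBI, ID1 and SMAD6 were called in opposite directions in the 2 experiments. TGFB2 was called in HFD tumors only, and with HA-TRIM15 its log2 fold change was -0.036 (edgeR adjusted p = 0.789).

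BMP4 fell in 3 experiments, and the sizes were not told apart after adjustment. Its HFD effect minus its shYY2 effect was -0.053 (95% interval -0.21 to 0.10, edgeR adjusted p = 0.56), its HFD effect minus its HA-TRIM15 effect -0.15 (95% interval -0.30 to -0.0079, edgeR adjusted p = 0.109), and its HA-TRIM15 effect minus its shYY2 effect 0.099 (95% interval -0.057 to 0.26, edgeR adjusted p = 0.275). Against shFOXRED1, where BMP4 was not called, the difference was -0.50 (95% interval -0.67 to -0.34, edgeR adjusted p = 3.32e-06) for HFD, -0.35 (95% interval -0.51 to -0.19, edgeR adjusted p = 7.11e-04) for HA-TRIM15 and -0.45 (95% interval -0.62 to -0.28, edgeR adjusted p = 3.26e-05) for shYY2. All 3 of these differences were past the threshold.

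Between HFD and shYY2, 5 members were past the threshold (TGFB1, ID2, ID3, SMAD7 and TGFBI), beside 61.9% of all genes. The rise of TGFB2 and of ID1 in these 2 experiments was of a size that the test did not separate, with differences of -0.16 (95% interval -0.37 to 0.047, edgeR adjusted p = 0.174) and -0.056 (95% interval -0.21 to 0.092, edgeR adjusted p = 0.518). HA-TRIM15 and shYY2 differed for 8 members, all but BMP4, beside 57.4% of all genes. ID1, ID2, ID3, SMAD6 and TGFBI were called in opposite directions in these experiments, while TGFB1, TGFB2 and SMAD7 were called under shYY2 only. The effects of shYY2 and shFOXRED1 differed for 8 members, all but SMAD6, beside 55.5%. HFD and shFOXRED1 differed for 6 (BMP4, TGFB2, ID1, ID2, ID3 and TGFBI) beside 49.5%, and HA-TRIM15 and shFOXRED1 for 6 (BMP4, ID1, ID2, ID3, SMAD6 and TGFBI) beside 36.5%. SMAD7 differed only in the 3 pairs with shYY2, the experiment in which it was called.

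**Figure D4:**
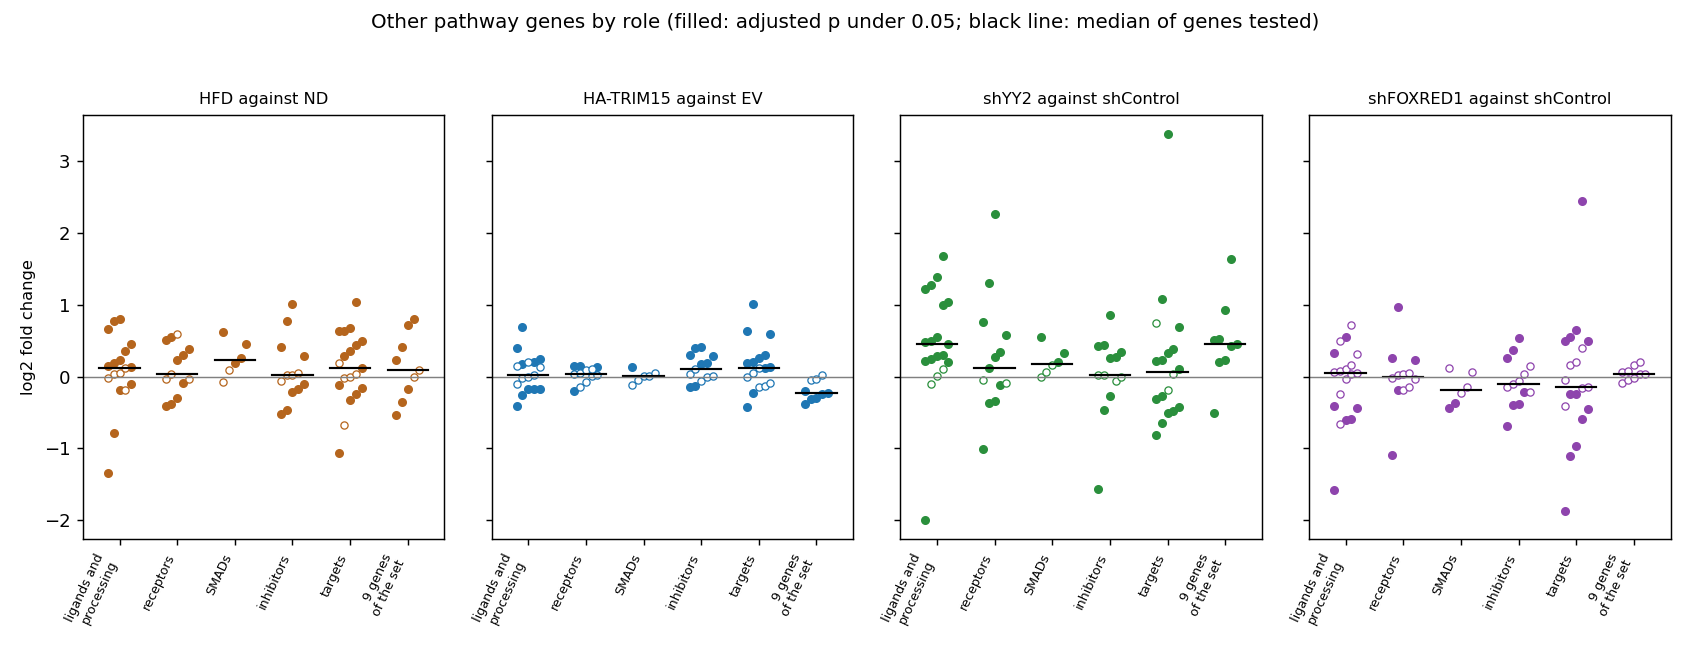
log2 fold change of the pathway genes tested, by role group, and of the 9 members at the right of each panel, in the 4 experiments, with filled points where the edgeR adjusted p was under 0.05 and a black line at the median. The member median lies below 0 with HA-TRIM15 (-0.23) and above 0 under shYY2 (0.46), and the ligand and processing group under shYY2 has 15 genes higher and 1 lower.

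**Figure D5:**
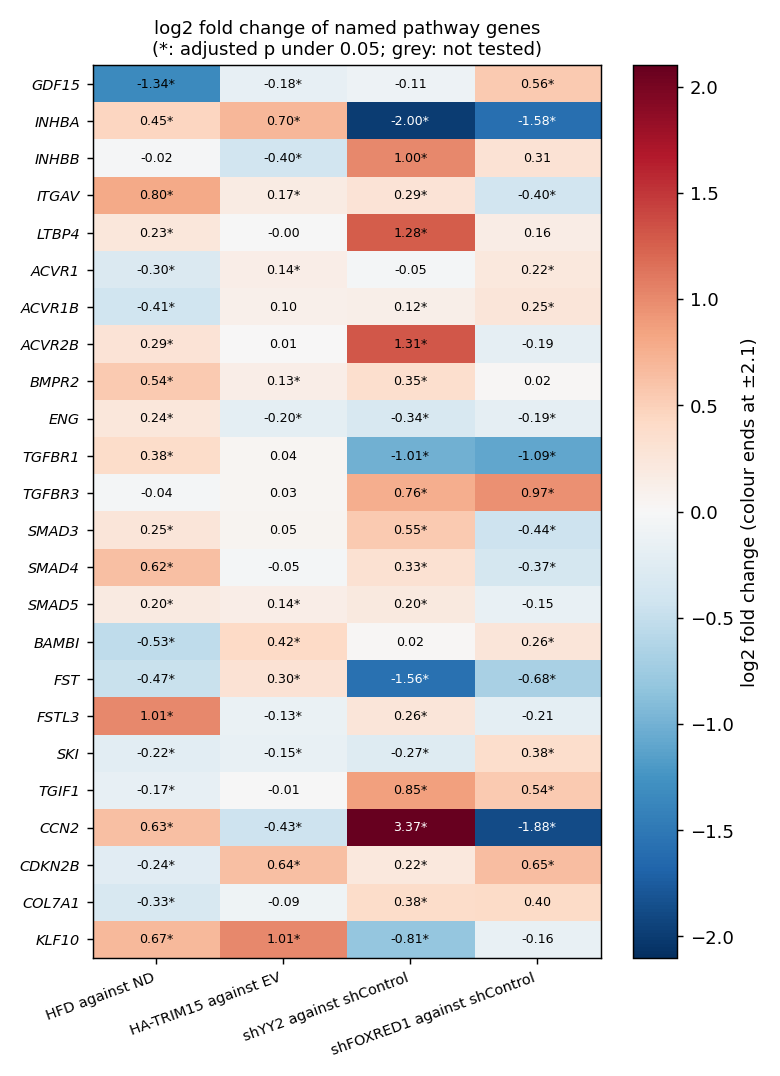
log2 fold change (colour and printed value) of pathway genes named in the text, in the 4 experiments, with an asterisk where the edgeR adjusted p was under 0.05. INHBA is positive in HFD and with HA-TRIM15 (0.45 and 0.70) and negative under shYY2 and shFOXRED1 (-1.58 in the latter), and CCN2 ranges from -1.88 to 3.37.

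Several named genes moved in opposite directions in different experiments. INHBA rose in HFD tumors and with HA-TRIM15 and fell under both hairpins, and TGFBR1 fell under both hairpins and rose in HFD tumors (log2 fold change 0.38, edgeR adjusted p = 1.88e-07). CCN2 rose in HFD tumors (log2 fold change 0.63, edgeR adjusted p = 4.76e-10) and under shYY2 and fell with HA-TRIM15 and under shFOXRED1. Differences between experiments were not tested for these genes.

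Across the 24 libraries, centred on the mean of each experiment, the genes whose log2 CPM was most like that of ID1 among 13931 were HAGHL and NPDC1 (Pearson r = 0.95 for each), MAPK13 and CDC25B (0.94 for each) and BLVRB (0.93). For TGFBI they were ARHGDIB (0.98), ARID1A and STK35 (0.97 for each), MAPK13 (0.96) and CDC25B (0.95). Among the members, TGFBI held rank 16 in likeness to ID1 (0.90), SMAD6 rank 68 (0.86) and TGFB2 rank 120 (0.83), ahead of ID3 (0.62) and ID2 (0.57), the other ID genes. BMP4 ran against both, with r = -0.47 to ID1 and -0.68 to TGFBI. These values are descriptions: the libraries fall into 4 experiments of 2 groups, so that r follows the group means and the points are not independent.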

How the data were processed

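RNA from 24 libraries was sequenced as poly(A)-selected paired-end reads, and the authors deposited 1 table of raw gene counts per experiment, by Ensembl identifier. The submitters' processing notes name the builds hg38 and mm10 without a role, and the aligner, the counter and the use of strand in counting are not given in the sources used here. All 24 columns of counts were used, and 0 columns of per-sample values were left out. Of the 61860 identifiers 99.8% were paired with a symbol, and exon lengths came from GENCODE 29.

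Each treated group was compared with its own control in edgeR 4.0.16 (R 4.3.3, limma 3.58.1), with a minimum count of 10 and a minimum total of 15, TMM factors, the quasi-likelihood test and Benjamini-Hochberg adjustment over all genes tested, at 0.05. Differences between experiments were contrasts in 1 fit of 8 group means. CPM per kb divides CPM by the exon length of the gene. No exact test was used, since 3 against 3 libraries cannot go below p = 0.1. Likeness used log2 CPM with a prior count of 0.5 and genes of at least 1 CPM. The scripts were tested on simulated data.

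The 9 members, the 82 pathway genes and the marker lists were chosen with earlier results of these data known. Named genes were all members, and, per role group and experiment, the called gene with the largest rise and the one with the largest fall at a mean of at least 1 CPM and with groups apart, the 5 genes most like ID1 and the 5 most like TGFBI, and the targeted genes. A gene that this rule also chose is not reported here. SMAD4 under shFOXRED1, TGFBR1 and CCN2 in HFD tumors and the markers COL1A1, ACTA2, PDGFRB, CD14 and ITGAM were named after their values were seen. The alternatives were DESeq2 size factors, 2 other filters, the DESeq2 1.42.0 Wald test, a replicate block and leaving out each library. Replicate pairs within a group differed by more than sampling noise, with a chi-square per gene of 1.47 to 7.94. The highest values were those of the third shFOXRED1 library, 7.94 with the first and 6.90 with the second. The first and second shFOXRED1 libraries gave 2.16. Promoter windows are from RefSeq, GRCh38.p14, and all 9 members had one. Only 250 bases before the start are shown.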

Additional observations from a re-analysis of the deposited data

How the results depend on the processing

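Over 11 alternatives each, 371 of 396 values of the members kept their direction and their side of the threshold, 11 lost a call, 3 gained one and 11 changed sign, the last all among values near 0 that were not called. Those that changed sign were TGFB1 in HFD tumors (main -0.0054, 0.012 with no filter on low counts, and -0.021 to 0.024 without 1 library), SMAD7 with HA-TRIM15 (-0.0070 to 0.066 without 1 library), and under shFOXRED1 SMAD6 (-0.0062 to 0.12), SMAD7 (-0.033 to 0.15) and BMP4 (-0.071 to 0.023) without 1 library. With HA-TRIM15, leaving out 1 library moved the genes called as lower from 1501 to between 787 (without the third EV library) and 2506 (without the first HA-TRIM15 library), those called as higher from 1973 to between 1247 and 2594, and pathway genes called as lower from 10 to between 3 and 12, while DESeq2 called 5 of these as lower. Under shFOXRED1 the members called as higher were 0 to 1. The cause was not tested, and a fit without 1 library also holds fewer samples. All 174 counts of members with different effects stayed within 1.5 times the main count.

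Libraries with the same replicate number deviated together little (r from -0.0275 to 0.097 over 12 pairs). An r over all genes cannot show whether the number stands for a shared batch. With the replicate block, members called as higher and lower were 4 and 3 for HFD, 0 and 6 for HA-TRIM15, 8 and 1 for shYY2 and 0 and 0 for shFOXRED1, as without it, and the genes called as lower went from 1501 to 1625 with HA-TRIM15.

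Standard errors of the members' log2 fold changes ran from 0.031 (TGFBI under shYY2) to 0.12 (ID2 under shFOXRED1), and differences that are small beside them could not be detected. Whether depth or the experiment sets them was not tested. Values are uncertain for TGFB2, which shares 26.6% of its exon bases with TGFB2-OT1 on the same strand, and, where strand was not used, for TGFB1 (6.64% opposite HNRNPUL1) and ID2 (1.72% opposite ID2-AS1).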
